A study of Oryza sativa Indica Group with 36 samples.

Results

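The 3 libraries labelled AT3, which come by their labels from seedlings of the rice cultivar 9311 kept for 3 days at 8 ℃, were compared with the 3 libraries labelled ACK, from 9311 seedlings that were not cooled. These 6 libraries were taken by their labels from the 36 libraries of the series, in which 12 treatments had 3 libraries each. 9311 (A in the labels, cold sensitive) and DC907 (B, cold tolerant) are near-isogenic lines, that is, lines bred to share most of their genome. Seedlings of both lines were grown in nutrient solution to the 4-leaf stage, and their stems and leaves were harvested. The libraries set beside AT3 were BT3 (DC907 after 3 days at 8 ℃), AT1 (9311 after 1 day at 8 ℃), BCK (DC907, not cooled) and AT3H1 (9311 after 3 days of cold and 1 day of recovery). Further labels were read on the genes that separate the cultivars. AT1H1 (9311) and BT1H1 (DC907) had 1 day at 8 ℃ and 1 day of recovery, and BT1 was DC907 after 1 day at 8 ℃. BT1H3 was DC907 after 1 day of cold and 3 days of recovery. BT3H1 and BT3H3 were DC907 after 3 days of cold and 1 or 3 days of recovery. All of the labels give the same wild-type genotype tag, and neither how many plants went into a library nor whether libraries of a group came from separate containers was stated in the sources used here, so that p-values measure the spread between these libraries.

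Rice is a plant of warm climates. In chilled leaves, calcium signals read by calmodulin and the hormone abscisic acid are known to switch on transcription factors such as NAC and AP2 proteins, while reactive oxygen species are removed by glutathione and ascorbate enzymes. Starch is broken down by amylases, trehalose is made and cleaved, and glutamate is turned into gamma-aminobutyric acid. RNA of the whole harvested tissue was sequenced, so less RNA per cell and fewer cells of a type cannot be told apart. No leaf or stem marker could be checked, since the tables give identifiers without gene names.

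Between 14928297 and 15918701 counts fell on genes in the AT3 libraries, and between 14960344 and 16816239 in the ACK libraries. The 50 most counted genes took 8.03% to 9.15% of the counts in AT3, against 13.3% to 14.6% in ACK. AT3 replicates 1 and 3 were alike (Pearson's r = 0.954 across 22178 genes in log2 of the CPM plus 1, where CPM is the count scaled to the library total). Replicate 2 stood apart from them, with r = 0.757 to replicate 1 and 0.787 to replicate 3. Among the controls, ACK replicates 1 and 2 were least alike (r = 0.760). Counts of calls, and genes whose call AT3 replicate 2 decides, are therefore given with and without it.

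The label of the AT3 libraries was examined first, on genes that separate the cultivars. A marker gene had all 9 libraries of ACK, AT1 and AT1H1 above all 9 of BCK, BT1 and BT1H1, or below all of them, and the mean log2 values, taken after adding 0.1 CPM, were at least 2 apart. There were 78 such genes, 46 higher in 9311 and 32 higher in DC907, and 32 of them were new genes assembled by the authors. The 3 AT3 libraries lay nearer to the DC907 mean on 88.5%, 89.7% and 92.3% of the marker genes. This is near where DC907 libraries lay and far from where ACK, AT1 and AT1H1 lay. BT3, BT3H1, BT3H3 and BT1H3 had no part in choosing the markers. They lay on the DC907 side for 92.3% to 98.7% of the same genes, at or above the highest AT3 library. ACK, AT1 and AT1H1, read on 93 to 139 markers chosen without their own time point, lay there for 5.38% to 26.6%. BCK, BT1 and BT1H1, read in the same way, lay there for 73.4% to 93.5%. The libraries labelled AT3H1 lay there for 82.1% to 96.2%. On these genes the AT3 libraries thus went against their cultivar label, and they are called below the libraries labelled AT3. The cause was not tested.

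**Figure D1:**
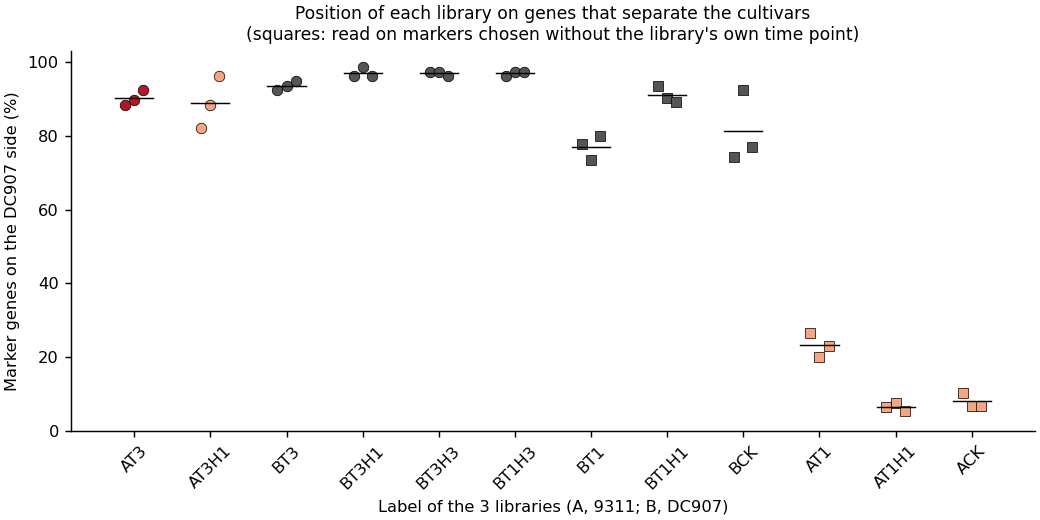
Share of marker genes (%, vertical axis) on which each library lay nearer to the DC907 mean, for the 3 libraries of each label (points, with the mean as a line). AT3 in dark red lies between 88.5% and 92.3%, near the DC907 labels in grey, while ACK, AT1 and AT1H1, in pale red squares, reach at most 26.6%. The DC907 labels read on the same markers as AT3 (grey circles) lie at 92.3% or above.

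Of the 46 marker genes higher in 9311, 44 put all 3 libraries labelled AT3 on the DC907 side, and 25 had 0 counts in all 3. The new gene Novel02403 had 0.0143, 0 and 0.0136 FPKM (the count scaled to gene length and library total) in the libraries labelled AT3, against 42.5, 63.6 and 55.3 FPKM in ACK. BGIOSGA010402 had 0, 0 and 0.0376 FPKM in the libraries labelled AT3, against 34.7, 57.2 and 46.2 FPKM in ACK. In BCK, Novel02403 reached at most 0.0238 FPKM and BGIOSGA010402 was at 0. Novel01178 and Novel01184 were at 0 in all libraries labelled AT3 and in all of BCK, and ranged in ACK from 20.3 to 28.2 FPKM and from 19.5 to 21.9 FPKM. Each of these genes was thus near or at 0 in AT3 and BCK and well expressed in ACK.

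Of the 32 marker genes higher in DC907, 20 put all 3 libraries labelled AT3 on the DC907 side. BGIOSGA010494 had 61.8, 164 and 70.3 FPKM in the libraries labelled AT3, against 0, 0.116 and 0 FPKM in ACK and 165, 121 and 147 FPKM in BCK. BGIOSGA012745 had 13.7, 20.8 and 12.7 FPKM in the libraries labelled AT3, against 0, 0 and 0.0434 FPKM in ACK. Novel01555 ranged from 6.95 to 17.6 FPKM in the libraries labelled AT3, and Novel01897 from 5.51 to 12.1 FPKM, against at most 0.0619 and 0.0470 FPKM in ACK. Both were higher in BCK, at 23.4 to 37.4 FPKM and 22.3 to 32.5 FPKM. For Novel01897 the difference between AT3 and BCK passed the test (log2 fold change -1.79, SE 0.44, adjusted p = 0.037, edgeR). BCK had a part in choosing this marker, so that the test is a description.

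The identifiers of the markers were not spread evenly. Of the 46 markers with a reference identifier, 36 fell in 3 runs of neighbouring numbers, in which a marker was at most 100 numbers from the next: 17 between BGIOSGA010277 and BGIOSGA010636, 12 between BGIOSGA012745 and BGIOSGA013108, and 7 between BGIOSGA029716 and BGIOSGA029724. Whether these numbers follow the order of the genes on the chromosomes was not stated in the sources used here.

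Not all markers placed the libraries labelled AT3 with BCK. In CPM, the AT3 libraries did not overlap BCK for 13 of the 32 markers higher in DC907. The same held for 3 of the 46 markers higher in 9311. The share over all genes was not counted against BCK. Against ACK, all 3 AT3 libraries lay above the control libraries in FPKM for 21.1% of all genes tested and below them for 22.8%. The counts against BCK are thus not read as particular to the markers. Among the 32 markers of either direction that could be tested between AT3 and BCK, 4 passed, where 19.2% of all genes tested did (Novel01897 and 3 named here after their values were seen). BCK had a part in choosing the markers, so that these counts and tests are a description. BGIOSGA010297, a marker higher in DC907, had 77.0, 103.3 and 32.5 CPM in the libraries labelled AT3 against 10.2, 11.2 and 10.3 CPM in BCK and at most 0.134 CPM in ACK. BGIOSGA012976, also higher in DC907, had 3.22, 1.63 and 5.87 CPM in the libraries labelled AT3 against 31.8, 22.4 and 38.6 CPM in BCK. BGIOSGA013108, a marker higher in 9311, kept 7.77, 7.41 and 12.2 CPM in the libraries labelled AT3 against 0 in all 3 BCK libraries, and only BT3 replicate 1, at 7.22 CPM, had counts among the 3 BT3 libraries. ACK had 11.0, 23.4 and 14.2 CPM of that marker.

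The change between the libraries labelled AT3 and ACK was then tested with the quasi-likelihood method of edgeR, and p-values were adjusted by Benjamini-Hochberg over all 22989 genes tested, with calls at an adjusted p under 0.05. It called 2345 genes higher, or 10.2% of the genes tested, and 2197 lower, or 9.56%, so that 19.8% were called in either direction. Among the marker genes, 52 of the 58 tested were called, 17 higher and 35 lower. ACK had a part in choosing the markers, so that this count is a description. Outside the marker genes, 2328 genes were higher and 2162 lower in the libraries labelled AT3, 4490 in all. In FPKM, the libraries labelled AT3 did not overlap ACK for 2325 of these higher and 2154 of these lower genes. Of all genes tested, 21.1% lay above ACK in this way and 22.8% below. The number of calls depended on single libraries: 6594 genes passed without AT3 replicate 2, 1331 without ACK replicate 1 and 2884 without ACK replicate 2. No gene passed without AT3 replicate 1, AT3 replicate 3 or ACK replicate 3, where 7043, 6957 and 5989 genes had an unadjusted p under 0.05.

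**Figure D2:**
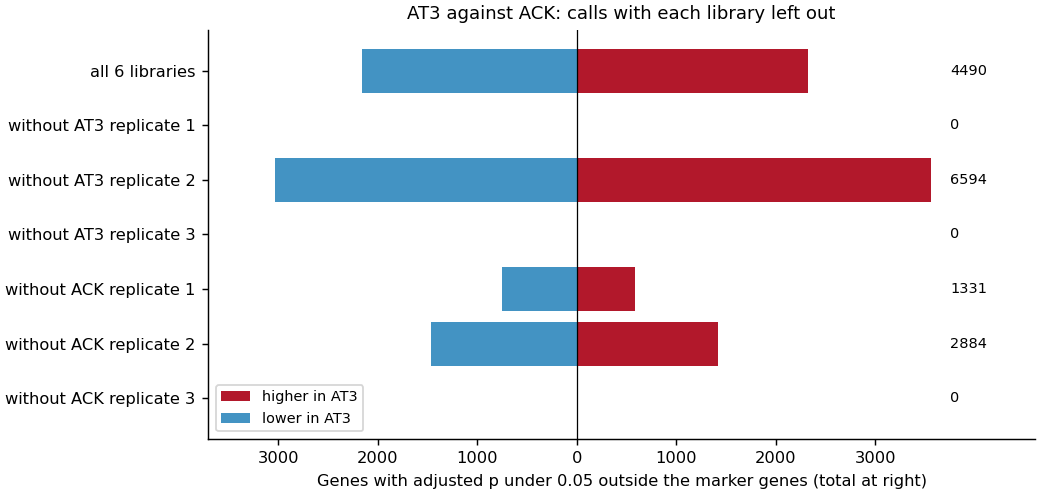
Genes outside the marker genes that passed the edgeR test between the libraries labelled AT3 and ACK (horizontal axis, higher to the right and lower to the left), with all 6 libraries and with each left out in turn. The total of 4490 becomes 6594 without AT3 replicate 2 and 0 without AT3 replicate 1, AT3 replicate 3 or ACK replicate 3.

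The called genes outside the markers changed by much. Among the higher genes the median log2 fold change was 2.75, and 653 of them rose by at least 4 on the log2 scale. Among the lower genes the median size was 2.95, and 540 fell by at least 4. None of the called genes changed by less than 1. The median SE was 0.54 among the higher and 0.59 among the lower genes. Small changes could thus hardly pass, and these sizes depend in part on the threshold.

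Since the libraries labelled AT3 resembled DC907 on the markers, they were also compared with BCK. In that comparison 22936 genes were tested, and 2223 were higher (9.69%) and 2173 lower (9.47%), or 19.2% in either direction. Outside the markers there were 4392 calls. There were 6364 without AT3 replicate 2 and 0 without AT3 replicate 1 or 3 (7071 and 7021 genes at an unadjusted p under 0.05), while leaving out BCK replicate 1, 2 or 3 gave 1042, 1804 and 379. Both comparisons use the same AT3 libraries, and in the comparison with ACK the effect of cold and a difference of cultivar cannot be told apart. Genes were therefore named only if they passed in the same direction against ACK and against BCK, lay outside the markers, and had all 3 libraries labelled AT3 above or below all 6 uncooled libraries with a mean of at least 10 FPKM on the higher side. Of all genes tested, 17.8% had the libraries labelled AT3 above all 6 uncooled libraries in FPKM and 18.2% below. The rule left 1381 higher and 1387 lower genes, and the 6 of each with the smallest p against ACK follow. The sources used here give none of them a function.

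BGIOSGA018654 was the most abundant of the 6 higher genes, with 227, 349 and 297 FPKM in the libraries labelled AT3, against 1.92, 3.91 and 2.75 FPKM in ACK and 1.25, 4.90 and 1.48 FPKM in BCK. Its log2 fold change was 6.73 against ACK (SE 0.51, adjusted p = 0.011) and 6.88 against BCK (SE 0.67, adjusted p = 0.014), both by edgeR. BGIOSGA012735 had 153, 161 and 253 FPKM in the libraries labelled AT3, against 5.52, 6.11 and 6.87 FPKM in ACK. Its values in BCK were 5.01, 17.0 and 3.97 FPKM, so that BCK replicate 2 was highest among the uncooled libraries. BGIOSGA004794 varied least, with 28.0, 31.0 and 31.9 FPKM in the libraries labelled AT3 against 0.573, 0.695 and 0.722 FPKM in ACK (log2 fold change 5.57, SE 0.40). Novel01262 showed the largest change of the 6, with 20.8, 18.2 and 32.8 FPKM in the libraries labelled AT3 against at most 0.0640 FPKM in ACK and 0.381 FPKM in BCK (log2 fold change against ACK 8.85, SE 0.58). BGIOSGA026487 and BGIOSGA013190 ranged from 22.3 to 58.5 and from 43.2 to 75.3 FPKM in the libraries labelled AT3, against at most 0.191 and 2.06 FPKM in ACK. Replicate 2 was the lowest AT3 library for Novel01262 and for none of the other 5 genes.

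Of the 6 lower genes, BGIOSGA006126 was the most abundant in 9311 without cold. It had 4.88, 10.1 and 6.53 FPKM in the libraries labelled AT3, against 196, 189 and 208 FPKM in ACK and 195, 135 and 282 FPKM in BCK. The log2 fold change was -4.73 against ACK (SE 0.39, adjusted p = 0.011) and -4.92 against BCK (SE 0.54, adjusted p = 0.014), both by edgeR. BGIOSGA022054 changed most of the 6, with 2.18, 1.48 and 1.85 FPKM in the libraries labelled AT3 against 121, 62.3 and 109 FPKM in ACK (log2 fold change -5.65, SE 0.47). BGIOSGA031578 had 2.49, 2.34 and 4.25 FPKM in the libraries labelled AT3, against 101, 161 and 172 FPKM in ACK, and 409, 133 and 76.0 FPKM in BCK. BGIOSGA013851, BGIOSGA035897 and BGIOSGA010306 had at most 3.42, 1.56 and 2.38 FPKM in the libraries labelled AT3 and at least 71.6, 24.1 and 29.9 FPKM in ACK. All of these 12 genes passed in the fits without AT3 replicate 2, ACK replicate 1 or ACK replicate 2, and none in the other fits that left out a library.

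**Figure D3:**
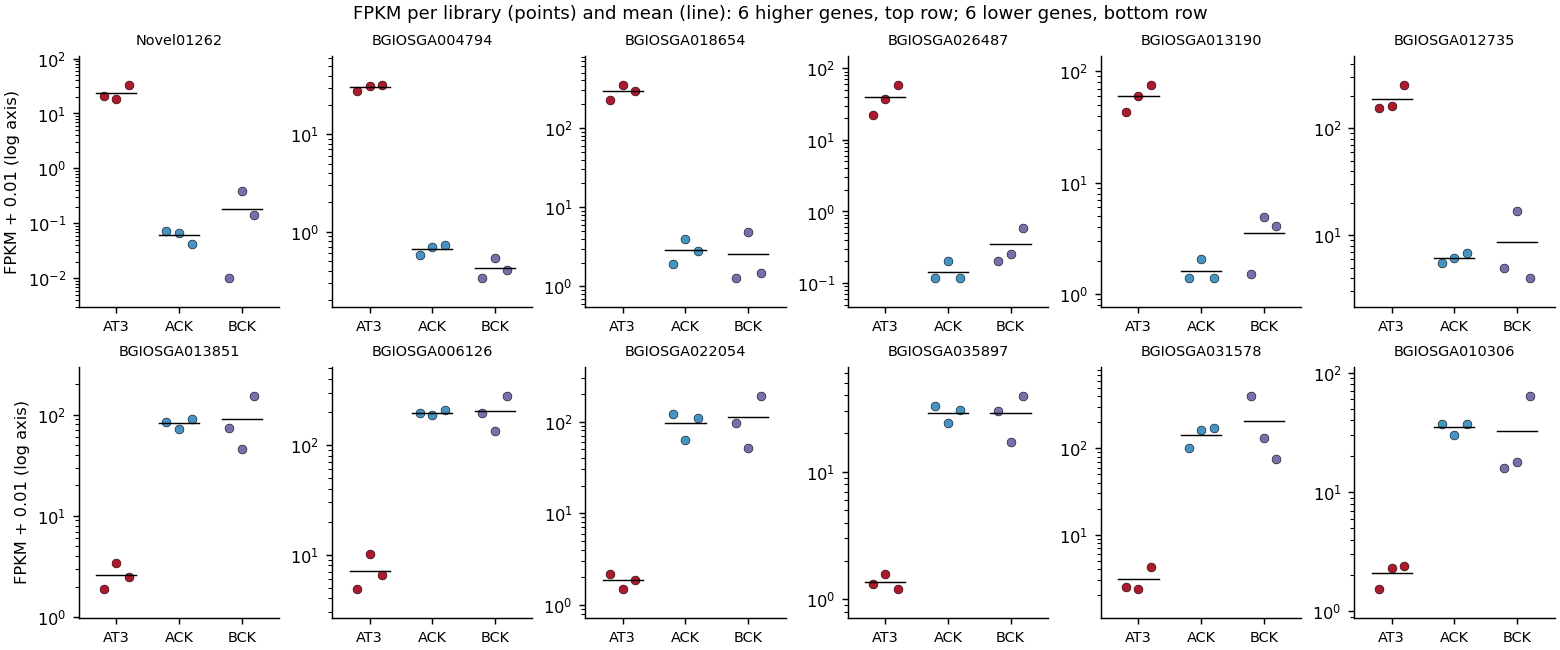
FPKM plus 0.01 (vertical, log axis) of the 6 higher genes (top row) and the 6 lower genes (bottom row) in each library labelled AT3, ACK or BCK (points) and the mean of 3 (line). The AT3 points do not overlap any ACK or BCK point in any of the 12 genes, as the rule for naming them required.

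Some genes were counted only on 1 side. With 0 counts in all 6 ACK and BCK libraries and at least 50 in each library labelled AT3 there were 5 genes, all new. Novel00826 had 73, 394 and 171 counts in the libraries labelled AT3, at least 442-fold more than the limit that 3 counts over the 6 uncooled libraries set, a limit that covers counting error only. Novel00530 had 111, 118 and 225 counts (at least 318-fold), and Novel00309 had 117, 137 and 62 counts (at least 222-fold). The other two, Novel01168 and Novel01840, had 51 to 147 counts. Novel00309 was already at 2.98 to 5.60 FPKM in AT1, with 1.48 to 3.22 FPKM in the libraries labelled AT3, whereas Novel00530 was at 0 in all 3 AT1 libraries and at 37.6 to 72.9 FPKM in the libraries labelled AT3. Neither passed between AT3 and AT1 (adjusted p = 0.28 and 0.054, edgeR), and Novel00530 averaged 4.53 ± 2.95 FPKM (SD, n = 3) in DC907 after 1 day of cold (BT1). BT3, which had 11.8 to 32.4 FPKM of Novel00530 and 0.338 to 0.581 FPKM of Novel00309, held both as well.

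In the other direction, 2 genes had 0 counts in all libraries labelled AT3 and at least 50 in each of the 6 uncooled libraries. BGIOSGA032365 had 114, 1852 and 733 counts in ACK and 2637, 1384 and 564 in BCK, and was at least 1134-fold lower in the libraries labelled AT3 when 3 counts over these libraries are taken as the limit. Novel01101 had 130, 151 and 109 counts in ACK and 138, 184 and 203 in BCK (at least 144-fold lower in the libraries labelled AT3). Both were also low in AT1, at 0.0166 to 0.0696 FPKM for BGIOSGA032365 and 0.158 to 0.521 FPKM for Novel01101. After 1 day of recovery, BGIOSGA032365 was at 0.0321, 8.03 and 15.8 FPKM in AT3H1.

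A list of 39 genes, 10 of them without a stated function, was taken from the identifiers that the paper's text and primer table give. The study chose them on these same libraries, so that their counts are not independent evidence of their direction. Against ACK, 37 were tested, of which 10 rose and 3 fell in the libraries labelled AT3 (10.2% and 9.56% of all genes tested), and their median log2 fold change was 1.96, against 0.02 over all genes tested. Against BCK, 38 were tested, of which 6 rose and 1 fell (9.69% and 9.47% of all genes tested). Without AT3 replicate 2, 18 rose and 4 fell against ACK. Without AT3 replicate 1, AT3 replicate 3 or ACK replicate 3 none passed, and without ACK replicate 1 or 2 there were 3 and 10, all higher.

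**Figure D4:**
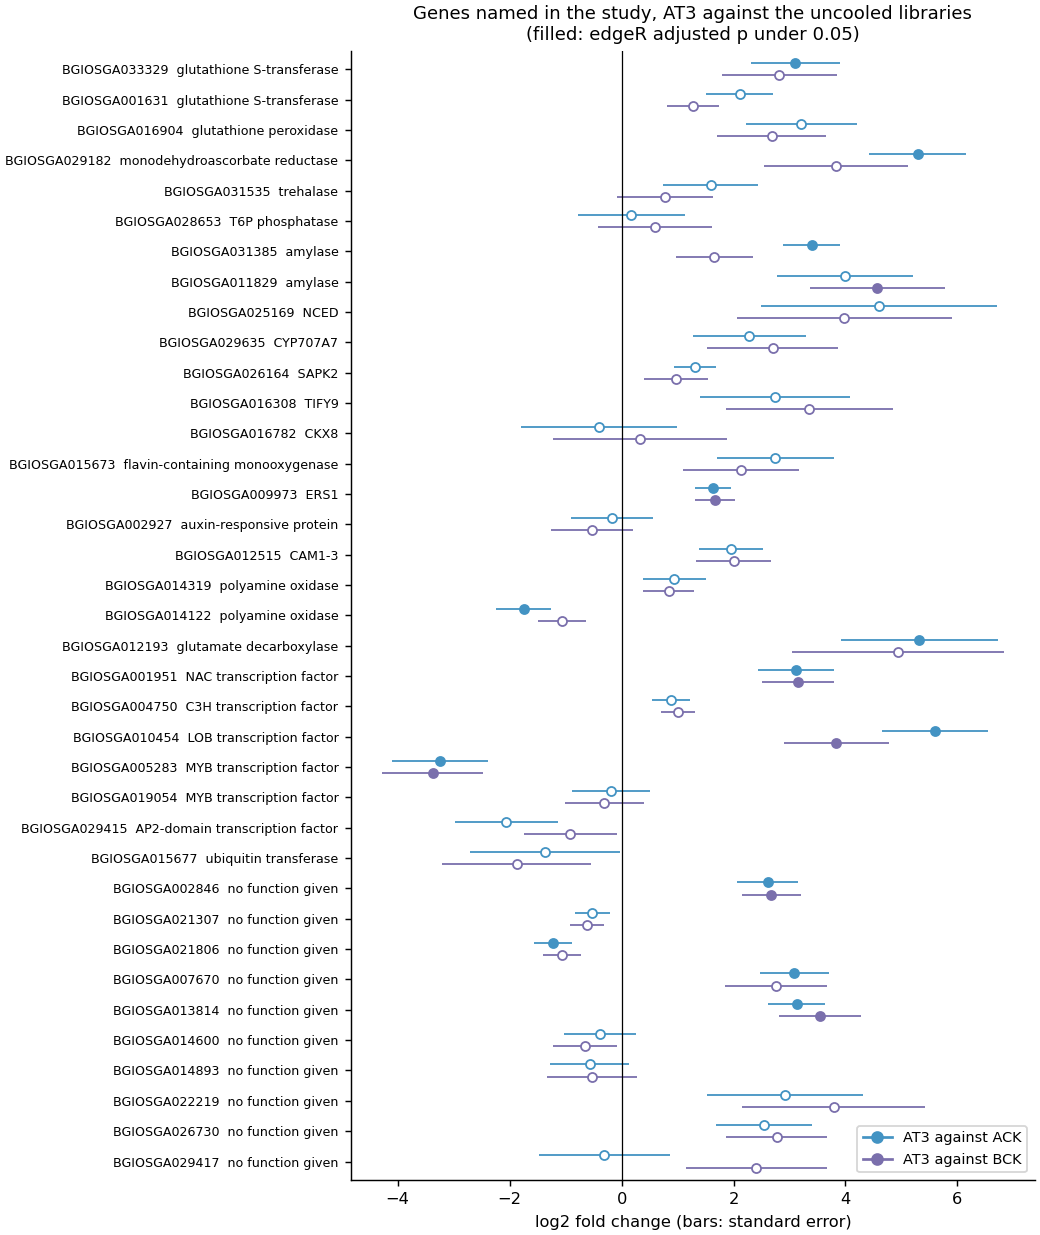
Log2 fold change (horizontal axis, bars give the standard error) of the 37 genes from the study's text or primer table that were tested between the libraries labelled AT3 and ACK (blue), and of the same genes between AT3 and BCK (purple), with filled points for an adjusted p under 0.05. In blue, 10 filled points lie to the right of 0 and 3 to the left.

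Of 4 antioxidant genes, 2 rose against ACK, where 10.2% of all genes tested did, and none passed against BCK, where 19.2% of all genes did in either direction. Monodehydroascorbate reductase (BGIOSGA029182), which returns oxidised ascorbate to its reduced form, had 912, 456 and 908 FPKM in the libraries labelled AT3, against 9.10, 42.4 and 11.0 FPKM in ACK. The groups did not overlap, and the log2 fold change was 5.29 (SE 0.87, adjusted p = 0.016, edgeR). BCK replicate 2 had 164 FPKM beside 10.4 and 6.27 FPKM in the other two BCK libraries, and the adjusted p against BCK was 0.079. The glutathione S-transferase BGIOSGA033329, of a family that couples glutathione to reactive compounds, had 116, 14.9 and 51.3 FPKM in the libraries labelled AT3, against 9.33, 5.59 and 7.92 FPKM in ACK (log2 fold change 3.10, SE 0.80, adjusted p = 0.041, edgeR). The second glutathione S-transferase, BGIOSGA001631, did not overlap ACK either, with at least 85.4 FPKM in the libraries labelled AT3 and at most 42.7 FPKM in ACK, but its adjusted p was 0.053. Glutathione peroxidase (BGIOSGA016904), which reduces peroxides with glutathione, had 1797, 186 and 2101 FPKM in the libraries labelled AT3, against 82.7, 251 and 144 FPKM in ACK. Replicate 2 lay inside the range of ACK, and the gene did not pass (log2 fold change 3.21, adjusted p = 0.064, edgeR). Without replicate 2 it did (log2 fold change 3.78, adjusted p = 0.014). For the glutathione S-transferase BGIOSGA033329, leaving out 1 library gave log2 fold changes between 2.20 without AT3 replicate 1 and 3.60 without AT3 replicate 2.

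Of 5 sugar genes, 4 were tested and 1 rose against ACK, beside 10.2% of all genes tested. Amylase BGIOSGA031385, an enzyme of starch breakdown, had 141, 338 and 179 FPKM in the libraries labelled AT3, against 12.3, 27.5 and 24.5 FPKM in ACK (log2 fold change 3.40, SE 0.51, adjusted p = 0.014, edgeR). Its values in BCK were 97.5, 74.2 and 20.3 FPKM, the lowest of them inside the ACK range. The log2 fold change against BCK was 1.66 (SE 0.68, adjusted p = 0.13, edgeR). The amylase BGIOSGA011829 had 561, 27.5 and 381 FPKM in the libraries labelled AT3, against 7.40, 40.6 and 18.5 FPKM in ACK and 20.6, 11.6 and 6.71 FPKM in BCK. Its replicate 2 again lay inside the range of ACK, and it passed against BCK (log2 fold change 4.57, SE 1.21, adjusted p = 0.043) and not against ACK (adjusted p = 0.063). Without AT3 replicate 2 it passed against ACK too (log2 fold change 4.59, adjusted p = 0.017, edgeR). Trehalase (BGIOSGA031535), which cleaves trehalose into glucose, had 9.15, 10.6 and 7.09 FPKM in the libraries labelled AT3, against 0.988, 7.24 and 1.13 FPKM in ACK, and did not pass (adjusted p = 0.22). BT3 had 137, 158 and 152 FPKM of trehalase, a log2 difference of -4.04 between AT3 and BT3 (SE 0.29, adjusted p = 0.071, edgeR), and AT1 lay between them at 24.8 to 27.4 FPKM. Trehalose 6-phosphate phosphatase (BGIOSGA028653), which makes trehalose, had 39.2, 8.07 and 8.77 FPKM in the libraries labelled AT3, inside or near the ACK values of 4.14, 36.2 and 13.8 FPKM. The amylase BGIOSGA028835 was too low to be tested against ACK, with 0.519, 5.97 and 0.185 FPKM in the libraries labelled AT3.

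**Figure D5:**
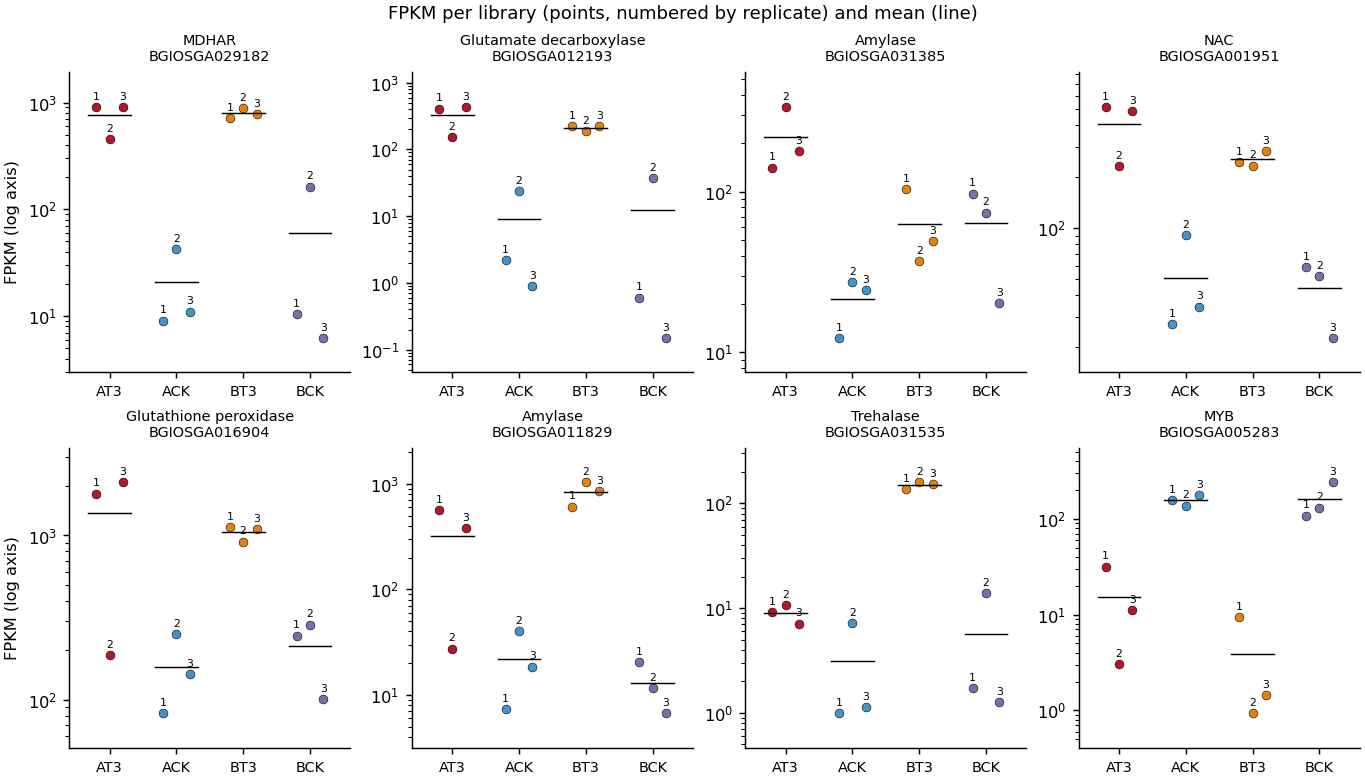
FPKM (vertical, log axis) of 8 genes in each library of AT3, ACK, BT3 and BCK (points, numbered by replicate) and the mean of 3 (line). AT3 replicate 2 lies apart from replicates 1 and 3 for glutathione peroxidase and the amylase BGIOSGA011829, and trehalase is at 7.09 to 10.6 FPKM in AT3 against 137 to 158 FPKM in BT3.

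Of 4 polyamine, GABA and calcium genes, 1 rose and 1 fell against ACK, beside 10.2% and 9.56% of all genes tested. Glutamate decarboxylase (BGIOSGA012193), which turns glutamate into gamma-aminobutyric acid, had 409, 151 and 434 FPKM in the libraries labelled AT3, against 2.17, 23.8 and 0.895 FPKM in ACK (log2 fold change 5.32, SE 1.41, adjusted p = 0.044, edgeR). Against BCK, where replicate 2 had 36.9 FPKM and the others 0.601 and 0.151 FPKM, the adjusted p was 0.11. The log2 fold change against ACK was 7.83 without ACK replicate 2, which held the highest ACK value, and 4.72 without ACK replicate 3. Of 2 polyamine oxidases, enzymes that break down polyamines, BGIOSGA014122 fell to 28.5, 81.5 and 46.2 FPKM in the libraries labelled AT3, against 232, 125 and 182 FPKM in ACK (log2 fold change -1.75, SE 0.49, adjusted p = 0.048, edgeR). It did not pass against BCK (94.3, 132 and 88.4 FPKM, log2 fold change -1.07, SE 0.44, adjusted p = 0.13). The other, BGIOSGA014319, had 244, 129.6 and 242 FPKM in the libraries labelled AT3 and 53.2, 181 and 107 FPKM in ACK, and did not pass. Calmodulin CAM1-3 (BGIOSGA012515), which binds calcium and passes the signal on, had 1109.7, 502 and 890.2 FPKM in the libraries labelled AT3, against 153, 382 and 155 FPKM in ACK. The groups did not overlap, but the adjusted p was 0.056, and 0.027 without AT3 replicate 2 (edgeR).

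Of 9 hormone genes, 8 were tested and 1 rose, a share near the 10.2% of all genes tested. BGIOSGA009973, taken here as ERS1, encodes a receptor of ethylene, and the paper's text gives it with another identifier for ERS1 and ERS2 together. It had 119.9, 129.6 and 137 FPKM in AT3, against 44.2, 48.6 and 38.1 FPKM in ACK and 35.2, 52.9 and 31.2 FPKM in BCK. Its 3 AT3 libraries lay close together, and its log2 fold change was 1.63 against ACK (SE 0.32, adjusted p = 0.022) and 1.67 against BCK (SE 0.36, adjusted p = 0.026), both by edgeR. SAPK2 (BGIOSGA026164), a kinase of abscisic acid signalling, had 356, 263 and 326 FPKM in the libraries labelled AT3, against 116, 159 and 128 FPKM in ACK. Although the groups did not overlap, its adjusted p was 0.0502 (0.027 without AT3 replicate 2, edgeR), and BCK replicate 1 reached 239 FPKM. The 9-cis-epoxycarotenoid dioxygenase BGIOSGA025169, of the family that catalyses the limiting step of abscisic acid synthesis, had 91.7, 0.160 and 5.68 FPKM in AT3. Replicate 2 was thus below all of ACK (0.295 to 3.71 FPKM). Replicate 1 reached only the lowest BT3 library, as BT3 ranged from 91.1 to 222 FPKM with a median of 195 FPKM. The gene did not pass with AT3 replicate 2 (adjusted p = 0.16) or without it (adjusted p = 0.054, edgeR). CYP707A7 (BGIOSGA029635), which degrades abscisic acid, had 64.8, 4.10 and 25.6 FPKM in the libraries labelled AT3 against 3.25, 11.9 and 6.08 FPKM in ACK (adjusted p = 0.15, and 0.030 without AT3 replicate 2). TIFY9 (BGIOSGA016308), of a family that represses jasmonate responses, had 44.3, 3.55 and 6.53 FPKM in the libraries labelled AT3 against 0.943, 7.13 and 0.817 FPKM in ACK (adjusted p = 0.18, and 0.093 without AT3 replicate 2). The flavin-containing monooxygenase BGIOSGA015673, of a family that makes auxin, had 14.0, 0.748 and 6.94 FPKM in the libraries labelled AT3 against 1.06, 1.60 and 0.841 FPKM in ACK (adjusted p = 0.11, and 0.016 without AT3 replicate 2). In these 4 genes replicate 2 was the lowest AT3 library. The auxin-responsive gene BGIOSGA002927 was the reverse, with 16.9, 81.6 and 10.8 FPKM in the libraries labelled AT3 against 38.4, 41.2 and 44.6 FPKM in ACK, and was lower in the edgeR fit without AT3 replicate 2 (log2 fold change -1.43, adjusted p = 0.039). CKX8 (BGIOSGA016782), which degrades cytokinin, stayed at or under 2.93 FPKM in every AT3 and ACK library, and the lipoxygenase BGIOSGA037588 had at most 0.0348 FPKM there and was not tested.

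Of 7 regulators, 2 rose and 1 fell, beside 10.2% and 9.56% of all genes tested, and these 3 passed against both ACK and BCK. The NAC transcription factor BGIOSGA001951 had 514, 230.3 and 484 FPKM in the libraries labelled AT3, against 27.2, 90.4 and 34.4 FPKM in ACK (log2 fold change 3.12, SE 0.68, adjusted p = 0.027, edgeR). AT1 was higher still, at 714 to 962 FPKM, a log2 difference of -1.24 between AT3 and AT1 (adjusted p = 0.16). The LOB transcription factor BGIOSGA010454 had 43.4, 149.8 and 53.9 FPKM in the libraries labelled AT3, against 3.26, 0.387 and 1.51 FPKM in ACK (log2 fold change 5.60, SE 0.95, adjusted p = 0.017, edgeR). BT3 had 7.76, 25.2 and 14.5 FPKM of the same gene. The MYB transcription factor BGIOSGA005283 had 31.8, 3.02 and 11.1 FPKM in the libraries labelled AT3, against 157, 138 and 176 FPKM in ACK (log2 fold change -3.24, SE 0.86, adjusted p = 0.044, edgeR). The second MYB gene, BGIOSGA019054, had 217, 31.4 and 80.0 FPKM in the libraries labelled AT3, on both sides of the ACK range of 123 to 152 FPKM. The AP2 gene BGIOSGA029415 was below ACK in all 3 libraries labelled AT3, at 22.1, 2.02 and 14.7 FPKM against 36.4 to 101 FPKM, and did not pass (adjusted p = 0.15). The C3H gene BGIOSGA004750 was even, at 27.6, 29.4 and 28.5 FPKM in the libraries labelled AT3 against 11.5 to 21.2 FPKM in ACK, and did not pass either (adjusted p = 0.11). The ubiquitin transferase BGIOSGA015677 had 27.9, 0.114 and 10.3 FPKM in the libraries labelled AT3 against 29.8, 48.9 and 29.5 FPKM in ACK (adjusted p = 0.49), so that replicate 2 was near 0.

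Of the 10 genes listed without a function, 3 rose and 1 fell, beside 10.2% and 9.56% of all genes tested. Genes of the primer table that rose against ACK are shown with their primers, which mark the transcripts concerned (5′ to 3′).
BGIOSGA031385 forward: gcgacacattctgcggctacct
BGIOSGA031385 reverse: cgaaggatacctcagctcaccacaa
BGIOSGA013814 forward: gattgggtgctgtgtcggctgta
BGIOSGA013814 reverse: atgtcggacgcctcctccttca
BGIOSGA007670 forward: ggcaacaaccagtcgtccacct
BGIOSGA007670 reverse: cccatctttcaccaccaggctgag
The first pair belongs to the amylase described above. BGIOSGA013814 had 1233, 894 and 655 FPKM in the libraries labelled AT3, against 109.6, 145 and 82.5 FPKM in ACK and 58.5, 159 and 28.2 FPKM in BCK, and passed against both (log2 fold change 3.13, SE 0.51, adjusted p = 0.015, and 3.55, SE 0.73, adjusted p = 0.025, edgeR). BGIOSGA007670 had 894, 486 and 377 FPKM in the libraries labelled AT3, against 55.0, 118 and 47.4 FPKM in ACK (log2 fold change 3.09, SE 0.61, adjusted p = 0.023, edgeR), and did not pass against BCK (adjusted p = 0.077). BGIOSGA002846 had 96.1, 35.8 and 108 FPKM in the libraries labelled AT3, against 17.5, 14.7 and 9.68 FPKM in ACK, and passed against both controls. BGIOSGA021806 fell to 31.8, 40.1 and 23.4 FPKM in the libraries labelled AT3, against 90.0, 65.1 and 76.8 FPKM in ACK (log2 fold change -1.23, SE 0.34, adjusted p = 0.047, edgeR), and did not pass against BCK (adjusted p = 0.068). The other 6 did not pass. Among them, BGIOSGA026730 had 243, 59.9 and 345 FPKM in the libraries labelled AT3 against 14.7, 68.6 and 36.0 FPKM in ACK (adjusted p = 0.080, and 0.027 without AT3 replicate 2), and BGIOSGA022219 had 95.5, 1.85 and 20.6 FPKM against 9.74, 5.99 and 1.33 FPKM (adjusted p = 0.18, and 0.049 without AT3 replicate 2), replicate 2 being lowest in both. BGIOSGA021307, BGIOSGA014600, BGIOSGA014893 and BGIOSGA029417 had log2 fold changes of -0.53, -0.38, -0.57 and -0.31, with adjusted p from 0.26 to 0.87 (edgeR).

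Over the 39 genes, the libraries labelled AT3 were all above the ACK range for 14 and all below it for 7. Over all genes tested between AT3 and ACK, 21.1% lay above it in this way and 22.8% below. Replicates 1 and 3 lay outside the ACK range on the same side for 30 genes. For 9 of these replicate 2 did not follow, being inside the ACK range for 6 and on the opposite side for 3. The shares of all genes that did so were not counted, so these counts describe the list only. Replicate 1 alone lay above the ACK range for 33.9% of all genes tested outside the markers, and below it for 40.7%.

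The size of the change in each library labelled AT3 was read on genes chosen in BT3 against BCK, which share no library with AT3 and ACK. BT3 against BCK called 4002 genes higher (17.2% of those tested) and 3896 lower (16.7%). Outside the markers, 4001 higher genes had a median difference from the ACK mean, in log2 of the FPKM plus 1, of 1.64 in AT3 replicate 1, 1.08 in replicate 2 and 1.46 in replicate 3. For the 3884 lower genes the medians were -1.70, -1.36 and -1.61. The higher genes lay above all 3 ACK libraries for 85.0%, 69.1% and 82.2% of genes in AT3 replicates 1, 2 and 3, and the lower genes lay below all 3 for 89.0%, 75.2% and 90.1%. Over all genes tested outside the markers, 33.7% to 38.3% lay above the ACK range and 36.7% to 40.7% below it. Replicate 2 thus lay on the same side of ACK as the others for most of these genes, with smaller medians. Of the BT3 genes that were also tested between AT3 and ACK, 3547 of 3727 higher ones and 3552 of 3780 lower ones had a fold change of the same sign, 1513 and 1398 of them passed, and 3 and 1 passed in the opposite direction. Over all 22989 genes tested, 50.4% had a positive fold change and 19.8% passed in either direction. These are counts across genes, which are not independent of each other.

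Between the libraries labelled AT3 and BT3, which had the same cold treatment, edgeR called 0 of 22501 genes (0%), and 4108 had an unadjusted p under 0.05. Outside the markers DESeq2 called 2281 genes, so that the count of 0 holds for edgeR. Without AT3 replicate 2 edgeR called 67 genes outside the markers. No gene of the 39 passed, and a difference such as that of trehalase was thus not called at 3 libraries a group.

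Between the libraries labelled AT3 and AT1, which by their labels had 3 days and 1 day of cold, 12 of 21898 genes passed (0.0548%), while 5301 had an unadjusted p under 0.05. Of the 12 genes, 4 were markers, namely Novel02403, BGIOSGA010402, BGIOSGA010494 and BGIOSGA012745. Outside the markers 8 passed, 3 higher and 5 lower in the libraries labelled AT3. All 8 are named here although the rule did not ask for it. No gene passed without AT3 replicate 1, AT3 replicate 3 or any AT1 library, and 1469 passed outside the markers without AT3 replicate 2.

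Of the 3 higher genes, Novel00429 had 244, 214 and 250.1 FPKM in the libraries labelled AT3, against 1.02, 1.02 and 0.769 FPKM in AT1 (log2 fold change 7.73, SE 0.37, adjusted p = 0.0042, edgeR). It was at most 0.322 FPKM in ACK, but it was uneven in DC907, with 0.865, 53.9 and 0.272 FPKM in BCK and 110.3, 0.580 and 0.293 FPKM in BT3. All libraries of BT1, BT1H1, BT1H3 and BT3H3 held it, at 54.3 to 169.9 FPKM, while AT1H1 had at most 0.338 FPKM. From lowest to highest library, it had 0.296, 64.6 and 69.1 FPKM in BT3H1 and 0, 50.6 and 59.4 FPKM in AT3H1, so that it was uneven there too. It was not among the markers. For it, and for the other genes named between AT3 and AT1, the time in the cold and a difference of cultivar cannot be told apart. BGIOSGA034050 had 53.0, 85.7 and 121 FPKM in the libraries labelled AT3 against 1.87, 2.34 and 2.49 FPKM in AT1, and AT3H1 had 3881, 6699 and 437 FPKM. BGIOSGA012293 had 48.2, 63.1 and 50.7 FPKM in the libraries labelled AT3 against 2.10, 2.08 and 1.30 FPKM in AT1. Its values in ACK (23.5, 64.6 and 59.9 FPKM) were within reach of those in the libraries labelled AT3, so that AT1 was the group that stood apart.

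Of the 5 lower genes, BGIOSGA033201 had 15.4, 17.0 and 16.8 FPKM in the libraries labelled AT3, against 194, 165 and 119 FPKM in AT1 (log2 fold change -3.51, SE 0.32, adjusted p = 0.038, edgeR). It was at 149, 521 and 363 FPKM in ACK and at 243, 120.5 and 177 FPKM in BT3, so that the libraries labelled AT3 lay below each of these groups. BGIOSGA015104 was also below all of them, with 18.7 to 33.4 FPKM in the libraries labelled AT3, against 316 to 353 FPKM in AT1, 37.7 to 189 FPKM in ACK and 117 to 426 FPKM in BT3. BGIOSGA009811, BGIOSGA013173 and BGIOSGA037114 had at most 2.55, 11.7 and 1.22 FPKM in the libraries labelled AT3 and at least 37.4, 69.3 and 38.7 FPKM in AT1. Of these, only BGIOSGA013173 overlapped BT3, where its lowest library had 9.27 FPKM.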

How the data were processed

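RNA of stems and leaves had been sequenced in 36 libraries. Reads had been aligned by the authors (HISAT2, indica assembly of Ensembl Plants, release 41) and new genes assembled with Cufflinks. The authors deposited raw counts per gene. The FPKM values were also made and deposited by the authors. The counting program and its strand setting were not given in the sources used here. Neighbouring or near-identical genes may share counts.

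Differential expression was tested on the deposited counts with edgeR 4.0.16 in R 4.3.3 (TMM, filterByExpr, robust quasi-likelihood F test, 3 libraries against 3, Benjamini-Hochberg adjustment), after a test on simulated data. Standard errors were taken as the size of the log2 fold change over the root of F. DESeq2 1.42.0, other size factors and filters, all libraries in 1 fit, other controls, a replicate block and leaving out each library were alternatives. The comparison and the gene lists were chosen with earlier results of these data known, and the reading of genes called in BT3 was added after the values were seen. Named were all genes of the study's text and primer table (apart from 3 identifiers given inconsistently), the 6 higher and 6 lower genes described, 4 markers of each direction, and genes counted on 1 side only. Coordinates are not given, since no genome of this build was used here.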

Additional observations from a re-analysis of the deposited data

How the results depend on the processing

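Outside the marker genes, the 4490 calls between AT3 and ACK became 8942 with DESeq2, 12580 with all 36 libraries in 1 fit and 8519 with ACK and BCK together as the control, where 57.2% were higher. Median-ratio size factors gave 4484, leaving the low counts in 3608, a minimum of 10 counts in each library 3714 (1645 higher and 2069 lower), and setting apart all 186 genes that edgeR called between the cultivars 4464. The replicate block gave 0 calls with 6395 genes at an unadjusted p under 0.05. Same-numbered AT3 and ACK libraries deviated from their group means with correlations of -0.30, -0.38 and 0.12. At 3 libraries a group, these values cannot decide whether the numbers pair the libraries. Leaving out 1 library gave 0 to 6594 calls between AT3 and ACK, 0 to 6364 between AT3 and BCK, 0 to 1469 between AT3 and AT1 and 0 to 67 between AT3 and BT3. Against BCK, DESeq2 called 8636 genes and the replicate block left 986. Against AT1, DESeq2 called 3432 genes in place of 8 and the replicate block 0. Against BT3, DESeq2 called 2281 in place of 0. The mean share of markers on the DC907 side, 90.2%, was 92.5% with a difference of at least 3, 83.5% with markers from T1 and T1H1 only and 92.7% with a pseudocount of 1 CPM.

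With BCK as the control, log2 fold changes reversed for BGIOSGA016782 (0.33), BGIOSGA029417 (2.41), BGIOSGA010494 (-0.66), BGIOSGA012745 (-0.70), Novel01555 (-1.49) and Novel01897 (-1.79), and with the replicate block for BGIOSGA028653 (-0.012). Leaving out 1 library gave -1.04 to 1.14 for BGIOSGA028653, -2.61 to 0.67 for BGIOSGA016782, -1.43 to 0.22 for BGIOSGA002927, -1.20 to 0.29 for BGIOSGA019054, -1.29 to 0.49 for BGIOSGA029417 and -0.15 to 0.41 for BGIOSGA012293. The cause was not tested. A gene with 0 counts in all 3 AT3 libraries can still be present at up to 0.0645 CPM, which is 3 counts over their total.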
